A study of Mus musculus with 23 samples.

Results

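The H19 imprinted gene network was followed here through 10 genes of 26869 in the count table. They are the noncoding RNAs H19 and Meg3, the growth factor gene Igf2, its receptor Igf2r, and Mest, Peg3, Dlk1, Cdkn1c, Grb10 and Plagl1. The genes were taken by symbol, matched to the Ensembl identifiers of the table, and all 10 had counts. H19 was chosen on these same tumors for its difference between responder and non-responder host lines, so that difference is given below as a description without a test. The other 9 genes are counted with H19 as an imprinted gene network.

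RNA was sequenced from 23 tumors grown by subcutaneous injection of MC38 cells, a mouse colon carcinoma line, into female mice 8 to 12 weeks old. Every host was an F1 between C57BL/6J and 1 of 6 Collaborative Cross lines, which are inbred mosaics of several founder strains. By the study's text the Collaborative Cross line was the maternal side of each host and C57BL/6J the paternal side. The sample labels name C57BL/6J first and do not state the direction. The crosses with CC001/UncJ, CC002/UncJ and CC075/UncJ (CC001F1, CC002F1 and CC075F1) were the responder lines (R), and those with CC036/UncJ, CC079/TauUncJ and CC080/TauUncJ (CC036F1, CC079F1 and CC080F1) the non-responder lines (NR), a division that comes from the study's text. Hosts carrying tumors of 75 to 110 mm3 were treated once with 200 µg of antibody, against PD-1 (aPD1) or an isotype control. The RNA is from 48 h after that injection, and there were 2 tumors for each line and antibody except CC080F1 with aPD1, which had 1. All hosts carried the same tumor line, and counts were totals over both parental alleles. Neither the allele nor the source of a transcript, tumor cell or host cell, can therefore be read from these values, and fewer cells of a type cannot be told apart from less RNA per cell.

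Imprinted genes are expressed mainly from the allele inherited from 1 parent. H19 is an untranslated RNA expressed from the maternal allele and is best known as the neighbor of Igf2, a fetal growth factor expressed from the paternal allele. A shared control region that binds the insulator protein CTCF on the maternal allele directs common enhancers to one gene or the other. Both genes are high in fetal mesoderm and endoderm, fall after birth in most tissues and can reappear in tumors and in activated mesenchymal cells. Many other imprinted genes fall with them after birth, and PLAGL1, a zinc finger protein, is described as an activator of several of them.

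On GRCm38, H19 lies on chromosome 7 from 142575529 to 142578143 on the minus strand, and Igf2 lies upstream of it on the same strand from 142650766 to 142666816. The other members are spread over the genome: Peg3 (6703892 to 6730431, minus strand) and Cdkn1c (143458339 to 143461050, minus) on chromosome 7, Dlk1 (109452823 to 109463336, plus) and Meg3 (109541001 to 109571726, plus) on chromosome 12, Mest on chromosome 6 (30723547 to 30748465, plus), Plagl1 on chromosome 10 (13060504 to 13131694, plus), Grb10 on chromosome 11 (11930508 to 12038683, minus) and Igf2r on chromosome 17 (12682406 to 12769664, minus). H19 and Igf2 each host a microRNA, as does Mest. The mature sequences are shown because miR-675 is a product of H19 with a sequence of its own, and because they let the 3 loci be compared. RefSeq places mir-675 within H19, mir-483 within Igf2 and mir-335 within Mest. Bases 2 to 8, the seed that pairs with targets, are in capitals, and no 2 of the 6 seeds were identical.
mmu-miR-675-5p: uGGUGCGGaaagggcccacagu
mmu-miR-675-3p: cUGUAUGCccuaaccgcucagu
mmu-miR-483-5p: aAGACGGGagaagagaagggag
mmu-miR-483-3p: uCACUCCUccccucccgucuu
mmu-miR-335-5p: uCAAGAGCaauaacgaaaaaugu
mmu-miR-335-3p: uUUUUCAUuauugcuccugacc
The libraries were made from poly(A) RNA, so the levels of these mature microRNAs were not measured, and the counts below are those of the host transcripts.

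RefSeq start windows on GRCm38.p6, from 250 bases before to 50 bases after a start, were given for 8 of the 10 genes, in 15 windows. H19 and Cdkn1c had none. The letters GGNGGCAG, a core of the CTCF motif, were found on either strand in 2 of the 15 windows, 1 of Igf2 and 1 of Grb10, against 12.6% of 32851 windows of all genes. The letters GGGGCCCC, taken for PLAGL1, were in 1 window, that of Peg3, against 1.08% of all windows. No window held both motifs. The window of Igf2 with a match is shown, since Igf2 is the gene whose counts moved with H19 below. It spans chr7:142658755-142659054 on the minus strand, and the capitals mark the match, which begins 65 bases before the start and reads on the opposite strand.
Igf2 start window: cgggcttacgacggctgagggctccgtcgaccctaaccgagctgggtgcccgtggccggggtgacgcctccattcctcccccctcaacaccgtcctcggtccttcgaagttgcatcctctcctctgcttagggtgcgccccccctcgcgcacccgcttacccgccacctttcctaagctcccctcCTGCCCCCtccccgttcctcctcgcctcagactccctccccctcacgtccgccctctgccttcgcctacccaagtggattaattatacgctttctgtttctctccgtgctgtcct
The window of Grb10, the other gene called between classes below, spans chr11:12037371-12037670 on the minus strand, and its match in capitals begins 24 bases after the start.
Grb10 start window: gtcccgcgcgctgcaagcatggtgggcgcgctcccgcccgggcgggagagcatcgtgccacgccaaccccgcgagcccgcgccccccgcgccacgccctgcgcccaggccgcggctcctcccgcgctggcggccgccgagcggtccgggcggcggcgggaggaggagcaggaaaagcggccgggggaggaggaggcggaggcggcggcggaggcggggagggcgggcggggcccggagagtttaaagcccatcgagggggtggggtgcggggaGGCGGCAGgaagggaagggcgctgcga
A match is a description of letters and not of binding.

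The depth of the libraries was 14493982 to 71868238 counts, with 17 deep libraries of at least 37242336 counts and 6 shallow ones of at most 18354547, of which 2 were R and 4 NR. Values below are normalized counts, that is, counts divided by the DESeq2 size factor of the library. The skeletal muscle genes of 4 libraries (CC001F1 isotype replicate 1, CC001F1 aPD1 replicate 1, CC075F1 aPD1 replicate 1 and CC080F1 isotype replicate 2) summed to 8645 normalized counts or more, and those of the other 19 to 1647 or less. Muscle is a tissue that expresses several imprinted genes. Each comparison was therefore also run in the 19 low-muscle libraries and in the 17 deep ones. Of the epithelial markers, Epcam had a median of 13.04 normalized counts and Krt18 was at 0 in 7 of 23 tumors. Cdh1, another epithelial gene of the list, was higher, at 79.91 to 858.0 with a median of 197.7. Shisal2b, the study's marker of MC38 cells, was at 460.1 or more in every tumor.

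H19 was abundant in all tumors and lower in those of the responder lines. Among isotype tumors, R tumors had 1182 and 2784 normalized counts in CC001F1, 623 and 855 in CC002F1, and 2415 and 3132 in CC075F1. The NR isotype tumors had 7991 and 8188 in CC036F1, 5204 and 6241 in CC079F1, and 4150 and 9239 in CC080F1. The groups did not overlap: each of the 6 R isotype tumors was below each of the 6 NR isotype tumors.

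With aPD1, R tumors had 3971 and 961 normalized counts of H19 in CC001F1, 2342 and 2597 in CC002F1, and 284 and 729 in CC075F1. The NR aPD1 tumors had 5114 and 2167 in CC036F1, 4672 and 5194 in CC079F1, and 9892 in the single CC080F1 tumor. Here the classes overlapped, because the second CC036F1 tumor was below 3 R tumors. Over both antibodies the mean was 6187 normalized counts in 11 NR tumors and 1823 in 12 R tumors, 3.39 times as high, and 10 of the 11 NR tumors were above every R tumor. The fitted difference, with antibody as a term, was -1.75 ± 0.37 (SE) on the log2 scale. It is printed without a p-value because H19 was selected on it. By mean log2(normalized count + 1) of a line the order was CC080F1, CC079F1, CC036F1, CC001F1, CC002F1 and CC075F1, and the ranges of every pair of neighbors in that order overlapped. Within a class the lines were not distinguished: the largest difference between fitted line effects was 0.47 among R lines (adjusted p = 1.0) and 0.53 among NR lines (adjusted p = 0.805) in DESeq2 likelihood ratio tests. Per kilobase of exon, H19 was the second most abundant of the 10 transcripts, with a median of 1273 normalized counts per kb over 23 tumors, next to 1338 for Grb10 and 19.1 for Igf2.

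**Figure D1:**
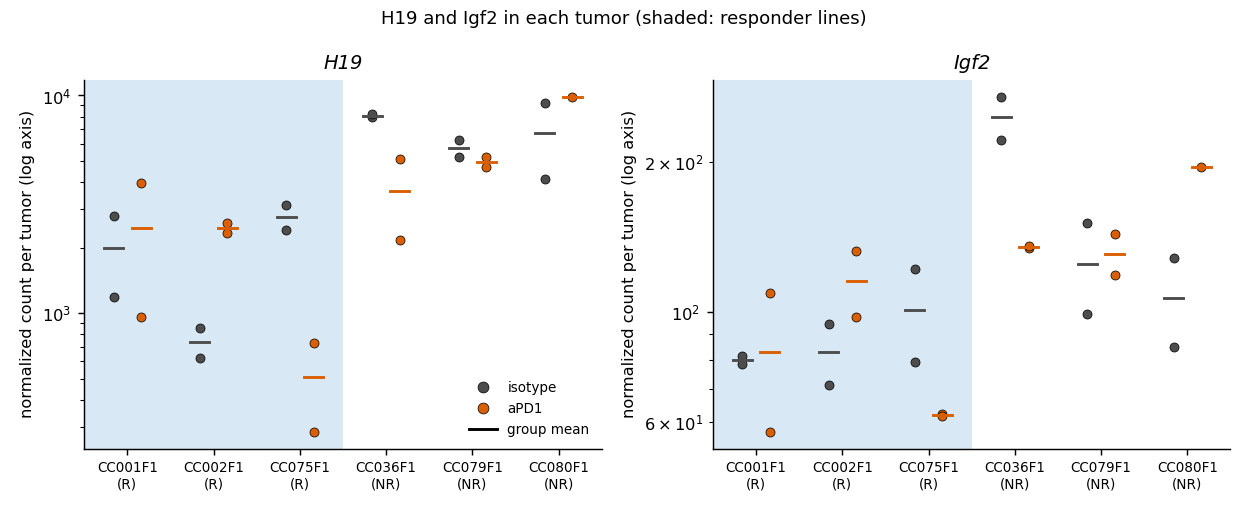
Normalized counts of H19 (left) and Igf2 (right) in each of 23 tumors on log axes, by host line and antibody. Points are tumors, short bars are group means, and the shaded lines are responders. The 6 R isotype tumors lie between 623 and 3132 for H19 and the 6 NR isotype tumors between 4150 and 9239.

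Igf2, the growth factor gene next to H19, was also lower in responder line tumors. The R isotype tumors had 78.4 and 81.6 normalized counts in CC001F1, 71.3 and 94.3 in CC002F1, and 79.3 and 122.0 in CC075F1, and the NR isotype tumors 221.7 and 271.4 in CC036F1, 150.8 and 99.1 in CC079F1, and 85.0 and 128.0 in CC080F1. With aPD1, R tumors had 109.0 and 57.2 in CC001F1, 132.7 and 97.5 in CC002F1, and 62.3 and 61.6 in CC075F1, and NR tumors 134.1 and 135.5 in CC036F1, 143.2 and 118.7 in CC079F1, and 195.7 in CC080F1. The classes overlapped with either antibody. CC036F1 isotype tumors stood highest, and 7 of 12 R tumors were below every NR tumor.

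Across all 23 tumors, with antibody as a term, Igf2 was 0.576 times as high in R as in NR (log2 difference -0.80 ± 0.19, DESeq2 adjusted p = 0.000612). It was called in isotype tumors alone (-0.86 ± 0.27, adjusted p = 0.0355, where 5.53% of all genes were called) and in aPD1 tumors alone (-0.73 ± 0.25, adjusted p = 0.0455, where 7.93% were called). In limma, where line entered as a random effect, it was -0.69 (adjusted p = 0.0320). The within-line correlation of that fit was 0.015, 1 value for all genes, so it too took tumors of a line as almost independent. The contrast is the one on which H19 was chosen, and H19 and Igf2 were measured in the same libraries.

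Of the 9 genes tested for the difference between classes, 2 were called, Igf2 and Grb10, both lower in R, in a comparison that called 14.4% of 17643 genes and 6.78% as lower in R. The other 7 had log2 differences from -0.33 ± 0.60 for Dlk1 to 0.49 ± 0.30 for Meg3, with adjusted p from 0.287 to 0.972. The errors of Dlk1 and Cdkn1c leave room for differences of either sign, and the sign of Mest, Peg3, Dlk1, Cdkn1c and Plagl1 turned under at least 1 alternative.

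The second question was whether other genes followed H19 over the tumors, with line and antibody as separate terms of the fit. No line by antibody term was fitted. Shifts between the antibodies within a line, given below for H19 and Igf2, therefore entered the coefficients. In a fit with line, antibody and the H19 level of the tumor, log2(normalized count + 1), as terms, Igf2 rose with H19, by 0.33 ± 0.08 on the log2 scale for each log2 unit of H19 (DESeq2 adjusted p = 0.00334). It was the 1 called among the 7 members with an adjusted p in DESeq2, where 9.41% of 14595 genes were called and 4.98% as rising with H19. The same coefficient was 0.33 in edgeR (adjusted p = 0.0309), 0.33 ± 0.09 in deep libraries (adjusted p = 0.00766) and 0.41 ± 0.12 in low-muscle libraries (adjusted p = 0.00969), and 0.30 to 0.39 with each tumor left out in turn.

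None of the remaining members was called with H19. The coefficient was 0.04 ± 0.04 for Igf2r, 0.12 ± 0.10 for Mest, 0.12 ± 0.15 for Peg3, -0.12 ± 0.12 for Meg3, -0.03 ± 0.03 for Grb10 and 0.01 ± 0.12 for Plagl1, with adjusted p from 0.518 to 0.983. Dlk1 (-0.01 ± 0.25) and Cdkn1c (-0.00 ± 0.27) were too low in counts to receive an adjusted p.

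**Figure D2:**
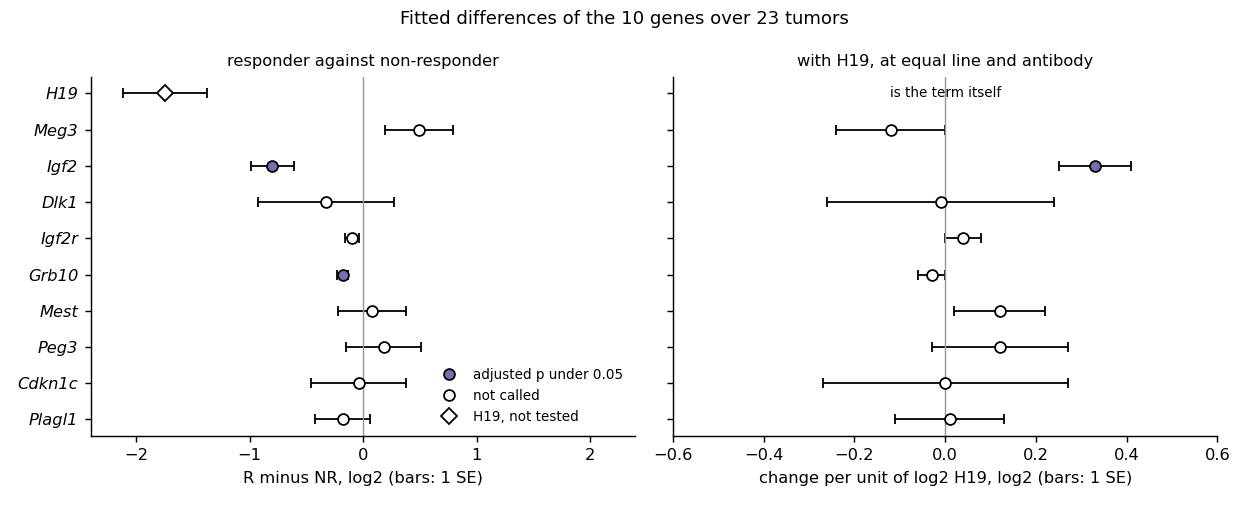
Fitted values of the 10 genes over 23 tumors, with bars of 1 SE. The left panel gives the log2 difference between R and NR tumors. The right panel gives the log2 change per log2 unit of H19, with line and antibody as separate terms. Filled points are called at an adjusted p under 0.05: Igf2 and Grb10 on the left and Igf2 on the right. H19 was not tested.

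As a description over tumors that share libraries and depth, the Spearman correlation of Igf2 with H19 was 0.77 over 23 tumors, 0.71 over the 12 R tumors and 0.44 over the 11 NR tumors. Of 12054 other genes with a mean of at least 100 normalized counts, 2.47% had a correlation as high over the 23 tumors, 3.41% in R and 11.6% in NR. Meg3, the maternally expressed RNA of the Dlk1 locus, had -0.41, a value that 18.7% of those genes reached or passed below. Each of the other 7 members was between -0.00 and 0.41 over the 23 tumors. In the NR tumors alone Igf2r had 0.54, above the 0.44 of Igf2, and 7.24% of those genes had a correlation as high. In the R tumors Igf2r had 0.14. The ratio of H19 to Igf2 counts ran from 4.56 to 36.4 in R tumors, with a median of 17.2, and from 15.99 to 72.2 in NR tumors, with a median of 38.1.

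H19 also moved with some of the listed fibroblast genes. The summed normalized count of 8 fibroblast genes, most of it Col3a1, ran from 55290 to 182000 in R isotype tumors and from 126700 to 178900 in NR isotype tumors, and from 51000 to 142200 and from 57760 to 178500 with aPD1. Its Spearman correlation with H19 was 0.81 over 23 tumors, 0.80 in R and 0.63 in NR, and with Igf2 it was 0.57 over 23 tumors. With line and antibody as separate terms, 3 of the 8 genes rose with H19, where 4.98% of all genes were called as rising. They were the collagen gene Col3a1 (0.56 ± 0.08, adjusted p = 4.16e-09) and the receptor genes Pdgfra (0.32 ± 0.04, adjusted p = 1.63e-10) and Pdgfrb (0.30 ± 0.04, adjusted p = 9.84e-12). None of the 8 was called as falling, and Col1a1, Col1a2, Bgn, Postn and Lum were not called with H19. Of the 6 lines, CC036F1 had the lowest means of Col1a1 (2371), Col1a2 (1172), Bgn (734.2) and Postn (1050). Its mean of H19 was 5865, so the listed genes did not move as 1 set. Between classes Col3a1 (-0.82 ± 0.24, adjusted p = 0.00899) and Pdgfra (-0.51 ± 0.15, adjusted p = 0.00767) were lower in R, where 6.78% of all genes were called as lower. The other 6 genes were not called, and the median log2 difference of the 8 was -0.06. Col1a1 had group means of 5666 (isotype) and 9587 (aPD1) normalized counts in R and of 4500 and 6341 in NR, and Col1a2, Bgn and Postn also had the higher group mean in R with either antibody. The Col3a1 and Pdgfra differences passed the threshold in edgeR, at 0.0216 and 0.0189, and neither did in the deep libraries, at 0.178 and 0.118. The part of fibroblast content in the levels of H19 and Igf2 was not tested.

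**Figure D3:**
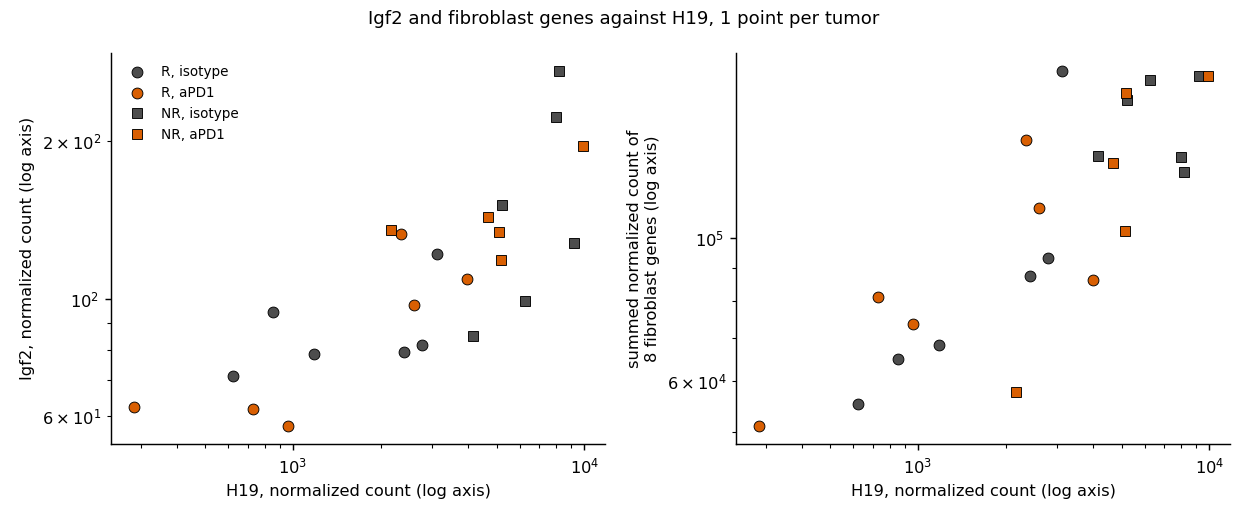
Igf2 (left) and the summed normalized count of 8 fibroblast genes (right) against H19, each on log axes, with 1 point per tumor. Circles are R and squares NR tumors, and color gives the antibody. Both rose with H19, with Spearman correlations of 0.77 and 0.81 over 23 tumors. Most of the sum is Col3a1.

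For other marker lists, Spearman correlations of the sums with H19 over 23 tumors were 0.09 for skeletal muscle, -0.16 for adipocytes, -0.22 for endothelium, -0.28 for leukocytes and -0.47 for MC38 and epithelial genes. In the same order they were 0.39, -0.15, -0.24, -0.1 and -0.61 in R tumors alone. In NR tumors alone they were 0.36, 0.02, 0.25, 0.4 and -0.38, so the sign for adipocytes, endothelium and leukocytes turned. The muscle progenitor list had 0.64 over 23 tumors, 0.66 in R and 0.18 in NR. Its sum was carried by Chrna1, an acetylcholine receptor subunit gene at 292 to 1067 normalized counts. Chrna1 rose with H19 by 0.26 ± 0.08 (adjusted p = 0.0227, and 0.0888 in edgeR). The factors that define muscle progenitors were near 0, with Pax7 at 0 in 22 of 23 tumors and Myod1 and Myog each at 0 in 17. Keratin genes went the other way: Krt18 fell by 1.61 ± 0.48 and Krt19 by 1.89 ± 0.55 for each log2 unit of H19 (adjusted p = 0.0142 and 0.0116, and 0.0242 and 0.0680 in edgeR), at group means of 57.03 normalized counts or less.

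H19 was not called for the antibody. Over all lines the difference between aPD1 and isotype was -0.21 ± 0.38 on the log2 scale (adjusted p = 0.871), with 3 lines higher and 3 lower. H19 was higher with aPD1 in CC002F1 (2470 against 739 normalized counts, group means, 1.76 on the log2 scale) and in the single CC080F1 tumor (9892 against 6695, 0.68). It was lower in CC075F1 (507 against 2774, -2.59) and in CC036F1 (3641 against 8089, -1.28), and differed by -0.21 in CC079F1 and by 0.11 in CC001F1. The 2 antibodies did not overlap in 5 of the 6 lines, CC001F1 being the exception, but each side held only 1 or 2 tumors. Such a count is not particular to H19: it was also 5 for Grb10, and 4 each for Igf2, Igf2r and Peg3. The share over all genes was not counted.

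A likelihood ratio test of the line by antibody terms, added after these values had been seen, called H19 (largest difference between line effects 4.20, adjusted p = 0.0167). H19 was the 1 member called of 8 with an adjusted p, where 2.76% of 14596 genes were called. The call was not made in edgeR (adjusted p = 0.0641). It was made in deep and in low-muscle libraries, but some line and antibody groups there held only 1 tumor. It was lost with any 1 of 6 tumors left out, the 4 of CC002F1, CC075F1 isotype replicate 2 and CC075F1 aPD1 replicate 1, at adjusted p from 0.0733 to 0.165. Igf2 differed in the same lines by 0.47 in CC002F1, 0.90 in CC080F1, -0.66 in CC075F1 and -0.86 in CC036F1, and was not called (span 1.79, adjusted p = 0.165, and 0.0479 without CC001F1 aPD1 replicate 2). The fibroblast sum was 55290 and 64990 in CC002F1 isotype against 142200 and 111500 in aPD1 tumors, and 87420 and 182000 in CC075F1 isotype against 51000 and 80950 in aPD1 tumors. Its part in the H19 differences was not tested.

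**Figure D4:**
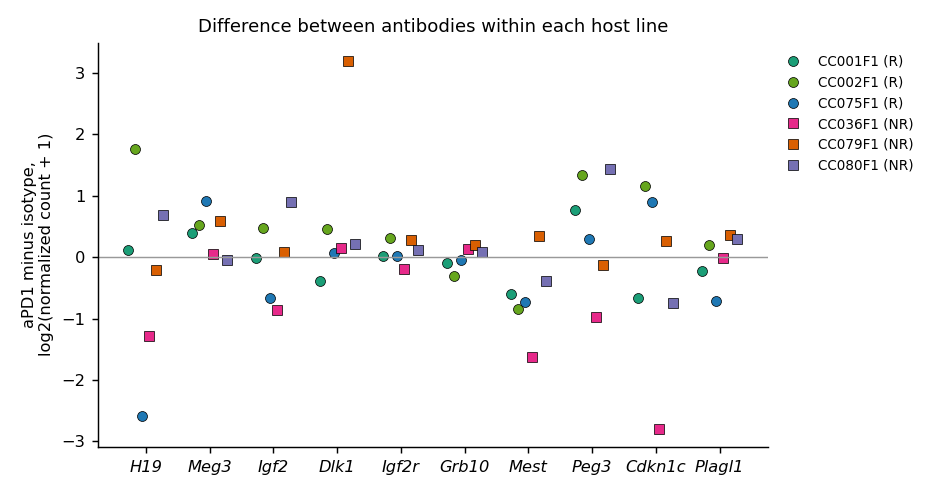
Difference between aPD1 and isotype group means of log2(normalized count + 1) for the 10 genes, with 1 point per host line (circles R, squares NR). Each point rests on 2 tumors an antibody, or 1 with aPD1 in CC080F1. H19 runs from -2.59 in CC075F1 to 1.76 in CC002F1, and Mest is below 0 in 5 of 6 lines.

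Among the growth-restraining members, Igf2r, the receptor that takes IGF2 to the lysosome, varied little. It ran from 2554 to 3797 normalized counts over 23 tumors, with a class difference of -0.10 ± 0.06 (adjusted p = 0.299) and an antibody difference of 0.09 ± 0.06 (adjusted p = 0.596).

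Grb10, an adaptor that dampens insulin and IGF receptor signaling, ran from 10280 to 14350 normalized counts. It was 0.885 times as high in R as in NR (-0.18 ± 0.05, adjusted p = 0.00913, and 0.0394 in edgeR, 0.0289 in deep libraries and 0.0242 in limma). With aPD1, R tumors had 10700 and 11090 in CC001F1, 10450 and 10580 in CC002F1, and 10280 and 12330 in CC075F1, and NR tumors 14280 and 14350 in CC036F1, 13310 and 13670 in CC079F1, and 12970 in CC080F1. All 6 R tumors were below all 5 NR tumors (-0.33 ± 0.06, adjusted p = 5.77e-06). In isotype tumors the classes overlapped, at 11110 to 13730 in R and 11380 to 13550 in NR (-0.03 ± 0.06, adjusted p = 0.825).

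The difference between these 2 contrasts, the class by antibody term, was -0.29 ± 0.08 for Grb10 and was not called over all tumors (adjusted p = 0.213, unadjusted p = 0.000313). It was called in deep libraries alone (-0.38 ± 0.08, adjusted p = 0.00454) and without CC001F1 aPD1 replicate 1, CC075F1 isotype replicate 2 or CC075F1 aPD1 replicate 2 (adjusted p = 0.0356, 0.0208 and 0.00566). In the low-muscle libraries the class difference of Grb10 was -0.16 ± 0.06 and missed the threshold (adjusted p = 0.0610). No member was called for the class by antibody term by DESeq2, which called 0.0342% of 26342 genes, or by edgeR. At an unadjusted p under 0.05 there were 2 members in DESeq2, Grb10 and Cdkn1c, and 1 in edgeR.

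Mest, a paternally expressed gene of the hydrolase fold family, was the 1 member of 10 called for the antibody, where 2.79% of 16638 genes were called. In isotype tumors it had 690.7 and 422.8 normalized counts in CC001F1, 793.3 and 430.5 in CC002F1, 458.9 and 521.9 in CC075F1, 339.0 and 225.4 in CC036F1, 518.5 and 386.6 in CC079F1, and 475.4 and 840.0 in CC080F1. In aPD1 tumors it had 507.0 and 249.3 in CC001F1, 304.4 and 351.6 in CC002F1, 265.4 and 328.6 in CC075F1, 99.2 and 78.7 in CC036F1, 664.3 and 483.8 in CC079F1, and 482.2 in CC080F1. The mean was lower with aPD1 in 5 of 6 lines and higher in CC079F1. The antibodies did not overlap in CC002F1, CC075F1 and CC036F1, with 2 tumors a side. Such a count of 3 lines is not particular to Mest. It was also 3 for Meg3, Cdkn1c and Plagl1, 4 or 5 for H19, Igf2, Igf2r, Peg3 and Grb10, and 1 for Dlk1. The share over all genes was not counted for Mest either.

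The fitted antibody difference of Mest was 0.631-fold (-0.66 ± 0.18, adjusted p = 0.0221). In R lines alone it was -0.74 ± 0.20 (adjusted p = 0.00941, where 5.26% of genes were called) and in NR lines alone -0.59 ± 0.37 (adjusted p = 1.00), and the difference between the classes was -0.15 ± 0.37 (adjusted p = 1.0). The call was not made in edgeR (-0.66, adjusted p = 0.116) or in low-muscle libraries (-0.63 ± 0.20, adjusted p = 0.0673), and held in deep libraries (-0.70 ± 0.20, adjusted p = 0.0381). It was lost without any 1 of 6 tumors, CC001F1 isotype replicate 1, CC001F1 aPD1 replicate 2, CC002F1 isotype replicate 1, CC002F1 aPD1 replicate 1, CC075F1 aPD1 replicate 1 and CC036F1 aPD1 replicate 1, with differences of -0.64 to -0.58 and adjusted p from 0.0554 to 0.119.

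Lines within the NR class differed in the Dlk1 to Meg3 locus on chromosome 12 and in Mest. Among the 3 NR lines 3 of 10 members were called, Meg3, Dlk1 and Mest, where 9.46% of 16936 genes were called. All 3 had their lowest line mean in CC036F1.

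Meg3 had 186.9 and 62.8 normalized counts in CC036F1 isotype tumors and 110.4 and 113.8 with aPD1. It had 238.6 and 333.1 in CC079F1 isotype and 385.6 and 461.4 in CC079F1 aPD1 tumors, and 480.3, 184.4 and 287.5 in the 3 CC080F1 tumors. CC036F1 lay below CC079F1 throughout and overlapped CC080F1 through 1 tumor. The largest difference between line effects was 1.59 on the log2 scale (adjusted p = 0.000109, 0.00652 in edgeR and 1.75e-06 in deep libraries). Rian, a noncoding RNA transcribed downstream of Meg3 in the same locus, had means of 69.2 in CC036F1, 239.6 in CC079F1 and 295.3 in CC080F1, and also differed among NR lines (2.13, adjusted p = 5.86e-11, and 0.000264 in edgeR).

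Dlk1, which encodes a membrane protein related to Notch ligands, was near the limit of detection. It had 4.35 and 0 normalized counts in CC036F1 isotype and 0.624 and 3.03 in CC036F1 aPD1 tumors, 3.10 and 0 in CC079F1 isotype, 16.95 and 17.9 in CC079F1 aPD1, and 17.97, 51.2 and 35.6 in CC080F1. CC080F1 was above both other lines in every tumor. The largest difference between line effects was 4.83 (adjusted p = 0.00126, 0.0272 in edgeR, 0.00718 in deep libraries), a fitted value that rests on counts near 0. Mest was lowest in CC036F1 with both antibodies, and its line effects differed by 1.71 (adjusted p = 0.00535, 0.00303 in edgeR, 1.57e-07 in deep libraries). The Mest call was lost without either aPD1 tumor of CC036F1 (1.56 and 1.49, adjusted p = 0.0833 and 0.0517).

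CC036F1 tumors also had low sums of endothelial and adipocyte markers. The endothelial genes summed to 2278 to 3916 normalized counts in its 4 tumors against 4466 to 6282 in the other 7 NR tumors, and the adipocyte genes to 114.0 to 184.7 against 410.1 or more. Of 6 genes each, 6 endothelial and 5 adipocyte genes were called between NR lines, where 9.46% of all genes were called, as were 6 of 8 fibroblast genes. The called genes had their lowest line mean in CC036F1 except Vwf, an endothelial gene that was highest there, at 617.8 normalized counts against 457.8 in CC079F1 and 334.1 in CC080F1. Their part in the Meg3, Dlk1 and Mest differences was not tested.

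**Figure D5:**
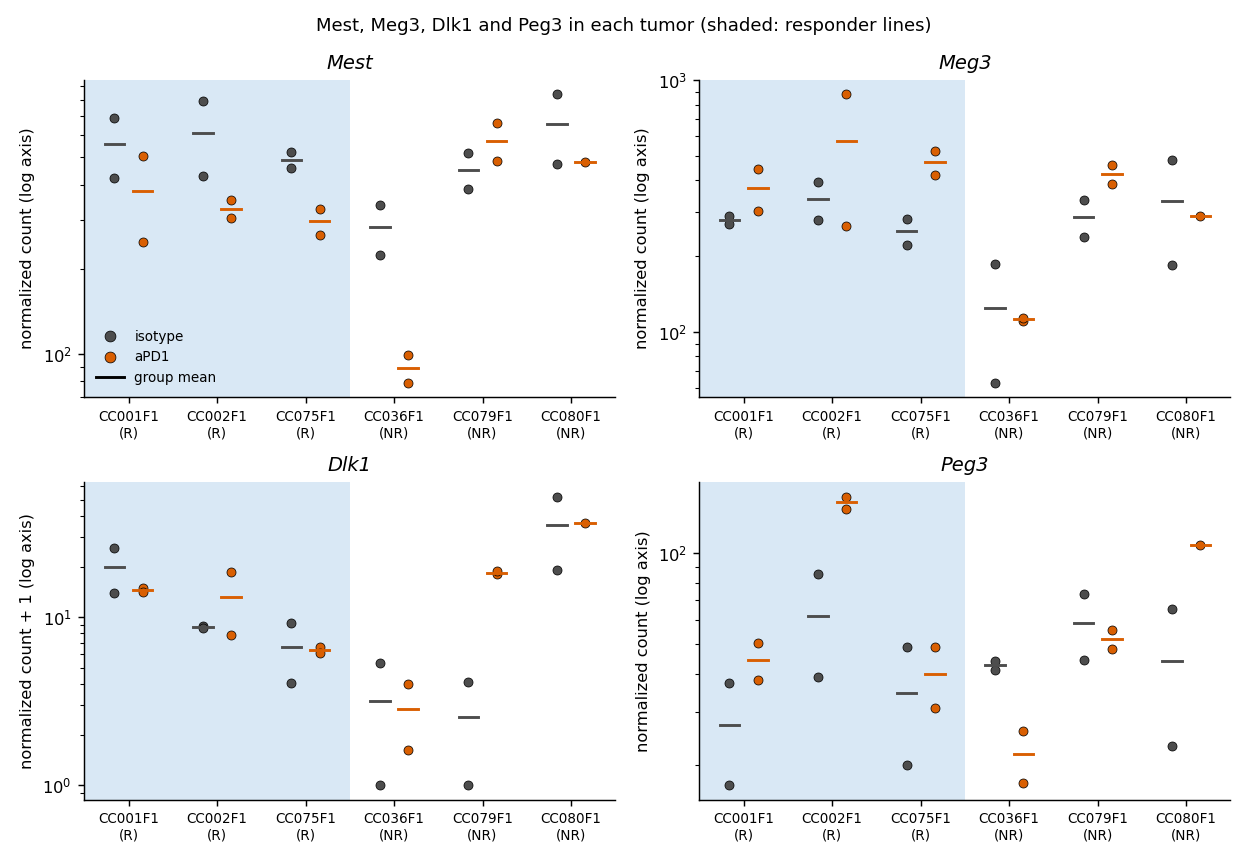
Normalized counts of Mest, Meg3, Dlk1 (plus 1) and Peg3 in each tumor on log axes, by host line and antibody. Points are tumors, short bars are group means, and the shaded lines are responders. Mest, Meg3 and Dlk1 had their lowest line mean in CC036F1, and Peg3 its highest in CC002F1.

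Among the 3 R lines 1 of 10 members was called, Peg3, where 1.05% of 19074 genes were called. Peg3 encodes a zinc finger protein and is paternally expressed. It had 85.2 and 39.05 normalized counts in CC002F1 isotype and 153.7 and 140.2 in CC002F1 aPD1 tumors, 17.2 to 50.7 in the 4 CC001F1 tumors and 19.98 to 49.1 in the 4 CC075F1 tumors. The 3 higher CC002F1 tumors were above all others of the class, and the fourth was not. The largest difference between line effects was 1.45 (adjusted p = 0.0132). The call was not made in edgeR (adjusted p = 0.303), deep libraries (0.0656) or low-muscle libraries (0.0843), nor without CC002F1 isotype replicate 1, CC002F1 aPD1 replicate 1 or CC002F1 aPD1 replicate 2 (adjusted p from 0.153 to 0.276).

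Cdkn1c, a cyclin-dependent kinase inhibitor gene that restrains growth, was low, at 0.605 to 25.6 normalized counts. Its antibody difference ran from -2.79 in CC036F1 (3.73 against 23.7) to 1.15 in CC002F1 (14.2 against 5.39), and no comparison called it. Plagl1 had 35.9 to 165.2 normalized counts, was called in no comparison over all tumors (between NR lines adjusted p = 0.251, and 0.0273 without CC036F1 aPD1 replicate 1), and had an antibody difference of -0.02 ± 0.21.

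Around H19, 10 genes other than Igf2 start within 250 kb of its start. None was called between classes among the 9 with an adjusted p, or with H19 among the 7 with one, by DESeq2. EdgeR called none in either comparison. At an unadjusted p under 0.05 DESeq2 gave 3 between classes (Ifitm10, Igf2os and Tnnt3) and 0 with H19. Ctsd, a lysosomal protease gene, had 13610 normalized counts in R and 13230 in NR, with 0.02 ± 0.08 between classes and -0.03 ± 0.04 with H19. Mrpl23, a mitochondrial ribosomal protein gene whose start is 45.5 kb from that of H19, had 0.26 ± 0.17 between classes and 0.01 ± 0.08 with H19. Igf2os, antisense to Igf2, had 0 to 20.3 normalized counts, and since the strand used in counting is not stated, its reads cannot be told apart from those of Igf2.

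The genes most like H19 over the 23 tumors lay elsewhere in the genome. By Spearman correlation these were Naalad2, Spsb1 and Kansl1l (each 0.94), and Smarca2, Epha7, Mtss1l, Ddah2 and Maged2 (each 0.92). The range of their correlations within the 12 R tumors was 0.69 to 0.94 and within the 11 NR tumors 0.68 to 0.94. Epha7, an ephrin receptor gene, had 2111 normalized counts in R and 3578 in NR tumors and rose by 0.29 ± 0.04 per log2 unit of H19 (adjusted p = 2.64e-13). Naalad2, a peptidase gene, had 2015 and 2510 and rose by 0.20 ± 0.02 (adjusted p = 1.86e-15). Smarca2, an ATPase of chromatin remodeling complexes, had 3836 and 4623 and rose by 0.13 ± 0.02 (adjusted p = 4.33e-08). These genes were picked for their correlation, so their values describe the pattern and are not a test of it. The lowest correlations included Grk6 (-0.91) and Sh3bp4 (-0.90), both higher in R tumors.

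Of 58 other imprinted genes listed, 54 were in the table. Between classes 8 of the 42 with an adjusted p were called, 1 higher in R and 7 lower, where 14.4% of all genes were called and 6.78% as lower, and edgeR called 3. The median log2 difference was -0.04, against -0.01 over all genes. Tspan32, a tetraspanin of leukocytes in the Kcnq1 domain, was higher in R (0.75 ± 0.17, adjusted p = 0.000558). The lower ones included Airn, the noncoding RNA antisense to Igf2r (-0.34 ± 0.11, adjusted p = 0.0219), the matrix proteoglycan gene Dcn (-0.26 ± 0.10, adjusted p = 0.0486), Ppp1r9a (-0.24 ± 0.06, adjusted p = 0.00250), Copg2, which neighbors Mest (-0.16 ± 0.04, adjusted p = 0.00238), and Sfmbt2 (-0.13 ± 0.04, adjusted p = 0.0195). In edgeR Airn, Dcn and Sfmbt2 missed the threshold (0.0630, 0.110 and 0.0661), as they did in deep libraries (0.176, 0.175 and 0.112).

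With H19, 5 of 33 of these imprinted genes were called, all rising, where 9.41% of all genes were called and 4.98% as rising, and edgeR called 4. They were Magel2 (0.99 ± 0.21, adjusted p = 0.000249), Dcn (0.22 ± 0.04, adjusted p = 3.63e-07), Airn (0.21 ± 0.05, adjusted p = 0.000712), the tetraspanin gene Cd81 (0.15 ± 0.03, adjusted p = 2.91e-05) and Ppp1r9a (0.09 ± 0.02, adjusted p = 0.00703). Ppp1r9a was the one not called in edgeR (0.0557). Magel2 was low, with line means of 18.4 to 45.0 normalized counts. Dcn is also a fibroblast gene, and the reads of Airn and Igf2r cannot be told apart where they overlap.

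In the IGF axis, 4 of 13 genes with an adjusted p were called between classes, against 14.4% of all genes. Igf1, the other IGF ligand gene, had means of 165 and 169 normalized counts in R tumors with isotype and aPD1 and of 262 and 310 in NR (-0.76 ± 0.20, adjusted p = 0.00330). The binding protein genes Igfbp5 (-0.75 ± 0.14, adjusted p = 1.04e-05) and Igfbp4 (-0.31 ± 0.11, adjusted p = 0.0368) were also lower in R, and Igf2bp3, an RNA-binding protein gene named for its binding of Igf2 mRNA, was higher (0.98 ± 0.23, adjusted p = 0.000579). Igfbp4 was the one not called in edgeR (0.0832) or in deep libraries (0.139). With H19, none of the 12 genes with an adjusted p was called by DESeq2 or edgeR, and 3 had an unadjusted p under 0.05.

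Of 14 genes on the imprint control list, 5 were called between classes, against 14.4% of all genes. The methylcytosine dioxygenase genes Tet1 (-0.84 ± 0.25, adjusted p = 0.00977) and Tet2 (-0.29 ± 0.10, adjusted p = 0.0237) were lower in R, and Tet3 (0.14 ± 0.03, adjusted p = 0.000416), the maintenance methyltransferase gene Dnmt1 (0.16 ± 0.04, adjusted p = 0.00223) and its partner Uhrf1 (0.14 ± 0.05, adjusted p = 0.0282) were higher. With H19, Tet1 rose by 0.56 ± 0.12 (adjusted p = 0.000114) and Smchd1 fell by 0.07 ± 0.02 (adjusted p = 0.0148, and 0.112 in edgeR). Of the 5 class differences, that of Tet2 was not called in edgeR (0.0630) and that of Tet1 was not called in deep libraries (0.102).

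Between classes, where 14.4% of all genes were called, 5 of 7 leukocyte genes were higher in R. Among them were Cd8a (1.78 ± 0.39, adjusted p = 0.000180) and Ptprc (0.77 ± 0.16, adjusted p = 8.42e-05), and of the 5, Cd3e and Itgax missed the threshold in deep libraries (0.0545 and 0.0517). Pecam1 was the 1 of 6 endothelial genes called (0.52 ± 0.17, adjusted p = 0.0201), and Chrna1 the 1 muscle progenitor gene (-0.59 ± 0.16, adjusted p = 0.00311, and 0.122 in deep libraries). Of the skeletal muscle, adipocyte, and MC38 and epithelial genes, none was called between classes by DESeq2 or edgeR, with 4, 0 and 0 at an unadjusted p under 0.05 in DESeq2. With H19, none of the leukocyte, endothelial, skeletal muscle or adipocyte genes was called by either tool, with 1, 0, 0 and 2 at an unadjusted p under 0.05. The part of these cell types in the class differences of H19, Igf2 and Grb10 was not tested.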

How the data were processed

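RNA was measured in 23 tumors. The authors prepared poly(A) libraries, aligned paired reads with bowtie (version 1.2.3 in the submitters' processing notes) to founder strain transcriptomes built from GENCODE vM23 on GRCm38, and deposited expected counts for each gene, summed over founder haplotypes with gbrs and not scaled for depth or length. The strand used in counting is not given in the sources used here. Of the deposited values 16.95% were not whole, and all were rounded to whole numbers before testing. Symbols and positions came from GENCODE vM21, which matched 26681 of 26869 identifiers. Sequences came from RefSeq tables of GRCm38.p6.

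The members and gene lists were chosen with earlier results of these data known. Groups followed the labels, and class was taken from the study's text. Genes whose counts totalled 5 or more in the fitted libraries entered DESeq2 1.42.0 (R 4.3.3) with default options, and a gene was called at a Benjamini-Hochberg adjusted p under 0.05 over all genes. Terms were class and antibody for the class difference, line and antibody for the antibody effect, with class by antibody terms added for that interaction, line and antibody within each class for line differences, and line, antibody and log2(normalized count + 1) of H19 for genes following H19. A p-value measures the spread between tumors, and class fits take tumors of a line as independent. All 10 members are named. Of the other imprinted, IGF axis, imprint control, fibroblast, skeletal muscle, muscle progenitor, adipocyte, endothelial, leukocyte, and MC38 and epithelial genes, at most 6 called genes a list could be named, by size of difference at a mean of at least 20 normalized counts, and Ctsd, Mrpl23, Igf2os and the zero counts of marker genes were picked after their values were seen. Likeness to H19 was ranked over genes with a mean of at least 100 normalized counts.

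Alternatives were edgeR 4.0.16 quasi-likelihood tests with TMM, limma 3.58.1 with line as a random effect, no filter or a stricter one on low counts, deep libraries (at least 30000000 counts), isotype or aPD1 tumors alone, R or NR lines alone, class in place of line, the replicate number as a block, and each tumor left out. Low-muscle libraries alone (skeletal muscle genes summing to at most 5000 normalized counts) and the line by antibody test were added after seeing the data. The fitting code was tested on simulated data. Tables were made in Python 3.11.15.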

Additional observations from a re-analysis of the deposited data

Results flagged for a closer look

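Among the NR isotype tumors, the second isotype tumor of CC080F1 had 51.2 normalized counts of Dlk1, and the other 5 had 0 to 17.97. It stood apart from the others by 0.649 of the group's range, past Dixon's limit for 6 samples. It was the 1 group of 40 in which the highest or lowest tumor passed that limit, and chance alone passes about 1 in 20. This library was also 1 of the 4 with high skeletal muscle genes, and the part of muscle in its Dlk1 level was not tested. Without it, the class difference of Dlk1 went from -0.33 to 0.21 on the log2 scale, and neither value was called.

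A test chosen after the values had been seen called the antibody difference of H19 as unequal among the 6 host lines. The largest difference between fitted line effects was 4.20 on the log2 scale (DESeq2 likelihood ratio test, adjusted p = 0.0167). By group means of log2(normalized count + 1), the antibody difference ran from -2.59 in CC075F1 to 1.76 in CC002F1, with 1 or 2 tumors behind each mean. The call was missed in edgeR (adjusted p = 0.0641) and lost without any 1 of 6 tumors, the 4 of CC002F1, CC075F1 isotype replicate 2 and CC075F1 aPD1 replicate 1 (adjusted p from 0.0733 to 0.165).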

How the results depend on the processing

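Results rest on 1 or 2 tumors for each line and antibody, and the deep and the low-muscle libraries leave more of these groups with 1. The class fits take tumors of a line as independent, and low counts limit Dlk1 and Cdkn1c. The alternative of low-muscle libraries and every line by antibody fit were chosen after seeing the data. The causes of the changes below were not tested.

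For the class difference, 2 members were called, and 1 in low-muscle libraries and 1 in isotype tumors alone. Genes called were 2548, and 1668 in deep libraries, 1622 in limma, 829 in isotype and 1361 in aPD1 tumors. The sign turned for Mest in aPD1 tumors (-0.11), for Peg3 in isotype tumors (-0.24), for Dlk1 in low-muscle (0.05) and deep libraries (0.07) and limma (0.78), and for Cdkn1c in limma (0.03) and aPD1 tumors (0.74). Leaving out each tumor gave -0.02 to 0.25 for Mest, -0.57 to 0.21 for Dlk1, -0.23 to 0.10 for Cdkn1c and -0.31 to 0.02 for Plagl1.

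For the antibody effect, 0 members were called in low-muscle libraries, 0 in edgeR and 0 in NR lines. Genes called were 464, and 15 in edgeR, 232 in deep libraries, 826 in R and 11 in NR lines. The sign turned for H19 in deep libraries (0.19), for Peg3 in NR lines (-0.07), for Dlk1 in R lines (-0.01), for Cdkn1c in deep libraries (0.05) and R lines (0.63), for Grb10 in low-muscle libraries (0.03) and NR lines (0.14), and for Plagl1 in the same settings (0.08 and 0.23). Leaving out each tumor gave 0 to 1 members, 155 (without CC001F1 aPD1 replicate 2) to 801 genes (without CC001F1 aPD1 replicate 1), and differences of -0.44 to 0.00 for H19, -0.19 to 0.02 for Igf2, -0.38 to 0.12 for Cdkn1c, -0.03 to 0.02 for Grb10 and -0.16 to 0.07 for Plagl1.

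For the class by antibody interaction, 1 member was called in deep libraries, and genes called were 9, and 103 in low-muscle libraries, 0 in edgeR and 50 in deep libraries. Leaving out each tumor gave 0 to 1 members, 4 (without CC080F1 isotype replicate 1) to 305 genes (without CC001F1 aPD1 replicate 1), and values of -0.24 to 0.80 for H19, -0.12 to 0.39 for Igf2, -0.00 to 0.12 for Igf2r and -0.37 to 0.07 for Mest. For line differences within responder lines, 0 members were called in low-muscle libraries, edgeR and deep libraries, genes called were 200, and 423 in low-muscle libraries and 87 in edgeR, and leaving out each tumor gave 0 to 1 members and 165 to 330 genes (without CC001F1 aPD1 replicate 1).

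For following H19, genes called were 1374, and 695 in edgeR. The sign turned for Dlk1 in edgeR (0.00) and with class in place of line (0.42), for Cdkn1c in low-muscle libraries (0.61), with the replicate block (0.03) and with class in place of line (0.03), and for Plagl1 with class in place of line (-0.02). Leaving out each tumor gave 727 (without CC075F1 isotype replicate 2) to 1821 genes, -0.13 to 0.09 for Dlk1, -0.17 to 0.42 for Cdkn1c and -0.05 to 0.12 for Plagl1. For the line by antibody interaction, 3 members were called in low-muscle libraries and 0 in edgeR, genes called were 403, and 653 in low-muscle libraries and 38 in edgeR, and leaving out each tumor gave 0 to 3 members and 167 (without CC002F1 aPD1 replicate 1) to 838 genes (without CC075F1 isotype replicate 1).

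The replicate numbers of the labels did not pair tumors across groups. Over 55 pairs of the 11 groups with 2 replicates, deviations of same-numbered tumors correlated by -0.344 to 0.236, with a median of 0.008 and 10 pairs over 0.1. With the replicate block, genes called for the class by antibody interaction rose from 9 to 121, with 0 members, and the number of members called changed in no comparison.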
